A study of Mus musculus with 24 samples.

Results

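The interferon-stimulated and MHC class I genes described here are 47 mouse genes of the interferon response or antigen presentation, and 35 of them were measured. They were chosen by name, with earlier results of these data known. A gene counted as measured where a row of the table carried its symbol alone, and each of the 35 had exactly 1 such row among 23238. The other 12 were not measured under this rule: Ifit3, Isg15, Usp18, Eif2ak2, Igtp, Iigp1, Ifi44, Xaf1, Sp100, H2-D1, H2-K1 and Nlrc5. The symbols of Ifit3, Eif2ak2, Igtp, Iigp1, H2-D1 and H2-K1 stood only in rows shared with other genes, so the heavy chains of classical MHC class I are missing and the class I pathway is seen through its light chain, its peptide transporter, its loading factor and its proteasome subunits.

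The right hippocampus of 24 BALB-c pups aged 10 days was profiled on Affymetrix Mouse Exon 1.0 ST arrays, with 1 pup to an array. The right side is that of the carotid artery ligation, per the labels' protocols. The labels give 4 groups of 6 pups: sham-injured without treatment (sham none), sham-injured with high-dose recombinant erythropoietin (sham EPO), brain-injured without treatment (injured none) and brain-injured with high-dose recombinant erythropoietin (injured EPO). Erythropoietin is the kidney hormone behind red cell production and has been studied as a protective agent in the injured newborn brain. No genotype other than the strain is named, and the sources used here do not give the dose and times of EPO or the day of injury. Replicates were numbered in accession order, and p-values measure the spread between single arrays of different pups.

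The group names need a caution that touches every comparison below. The sample characteristics give mouse status and treatment, and the groups follow them, but the sample titles begin with Sham_N, Sham_Y, Epo_N and Epo_Y. If the first word of a title were the treatment and the letter the injury, the groups called sham EPO and injured none here would change places, while sham none and injured EPO would stay. The arrays are therefore called by their labels, and the counts under the other reading are given beside the main ones. The arrays called sham EPO had 8 of 10 neuron and hippocampus markers lower and Gfap higher than sham none, at the threshold used below. Injured none against sham none called 0 of 23238 rows. Which reading of the titles is right was not tested.

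Interferons are secreted proteins that cells release on sensing viral or displaced nucleic acid or on immune activation. Type I interferon acts through the receptor chains Ifnar1 and Ifnar2 and the kinases Jak1 and Tyk2 to bring Stat2 and Irf9 to the interferon-stimulated response element, while the signal of interferon gamma ends at the gamma-activated site. The induced genes encode antiviral proteins and the machinery that cuts proteins into peptides, pumps them into the endoplasmic reticulum and loads them onto MHC class I. In brain, microglia, astrocytes, endothelial cells and neurons can all respond, and class I molecules of neurons also have a known role in synapse refinement.

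The letters of both elements were looked for in the promoters of the members, because these are the sequences through which the pathway is known to act. The windows came from RefSeq on GRCm38.p6 and span 250 bases before to 50 bases after a gene's start; 28 of the 35 measured members had at least 1. The core of the response element was searched as GAAANNGAAA and the gamma-activated site as TTCNNNGAA, on both strands, and overlapping matches of the 2 motifs were both counted. The response element core was found in 11 of the 28 members (39.3%), against 1079 of all 27025 genes with a window (3.99%). The gamma-activated site was found in 7 of the 28 (25%), against 2582 of all genes (9.55%). A match shows that the letters are there and nothing about binding. The members were chosen by name for the interferon response, so these shares say nothing about the arrays. The core was in 10 of 25 members called higher in sham EPO than in sham none, and in 1 of 3 not called. The stretches printed here belong to members described further on and are written 5′ to 3′ on the gene's own strand, with the matched letters in capitals, so that a match on the other strand reads as the reverse complement.
Ifit1: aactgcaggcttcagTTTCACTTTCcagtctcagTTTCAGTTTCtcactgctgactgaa
Gbp2: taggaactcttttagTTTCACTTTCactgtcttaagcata
Gbp3: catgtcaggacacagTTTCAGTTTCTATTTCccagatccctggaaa
Irgm1: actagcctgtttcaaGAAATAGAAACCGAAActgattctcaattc
Trim30a: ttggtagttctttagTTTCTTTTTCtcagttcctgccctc
Bst2: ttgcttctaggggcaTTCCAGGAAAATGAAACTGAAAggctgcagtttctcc
B2m: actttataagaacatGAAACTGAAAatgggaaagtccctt
Stat2: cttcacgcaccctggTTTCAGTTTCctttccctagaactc
Irf1: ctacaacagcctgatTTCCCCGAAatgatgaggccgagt
Psmb8: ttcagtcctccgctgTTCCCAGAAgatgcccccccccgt

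In that order they lie at chr19:34640770-34640828 (plus strand), chr3:142620589-142620628 (plus), chr3:142559984-142560029 (plus), chr11:48871421-48871465 (minus), chr7:104465205-104465244 (minus), chr8:71537572-71537623 (minus), chr2:122147533-122147572 (plus), chr10:128270261-128270300 (plus), chr11:53769909-53769947 (plus) and chr17:34198083-34198121 (plus) of GRCm38.p6, all upstream of the annotated start. The stretch of Ifit1 holds the response element core at 2 separate places, those of Gbp3 and Irgm1 hold overlapping copies, and that of Bst2 holds a gamma-activated site that runs into the response element. Irf1 and Psmb8 show the gamma-activated site alone. Stat2 carries the response element core although its difference did not pass the test in any comparison, and these letters were not in the windows of Irf7, Irf9, Oasl2, Tap1, Tapbp or Psmb9.

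The arrays gave log2 expression values, on which a difference of 1 is a doubling, for 23238 rows, 14939 of them with 1 gene symbol. Array medians lay between 5.05 and 5.43 and the correlation between any 2 arrays between 0.952 and 0.993. The third injured EPO array had the lowest median and the lowest mean correlation with its own group, 0.974. The 10 neuron and hippocampus markers, among them Snap25, Camk2a, Neurod6 and Prox1, were high on every array. They averaged 9.66 to 10.05 on the sham none arrays, above the 90th percentile of all rows at 8.86. The lowest average on any array, 8.57 on a sham EPO array, was above the 75th percentile at 7.52. No other brain region was compared, so these levels do not tell hippocampus from other neuronal tissue. Differences were tested in limma with 1 mean per group over all 24 arrays and p-values adjusted over all rows, with a threshold of 0.05.

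In the sham-labelled pups, 32 of the 35 measured members were higher with EPO than without, and 0 fell, at an adjusted p under 0.05. Over all rows the same test called 11.5% higher and 7.6% lower. The members were chosen with earlier results of these data known, so their counts are not independent evidence of direction. For 27 of the 35, each sham EPO value exceeded all sham none values, which was so for 7.7% of all rows. A rise of at least 2-fold was seen in 23, a count not taken over all rows. The median difference of the 35 was 1.16 on the log2 scale, against 0.03 over all rows. The members below the threshold were Stat2, Cmpk2 and Adar. With titles read the other way these counts become the comparison of injury without EPO, and EPO in sham then has 0 members called.

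**Figure D1:**
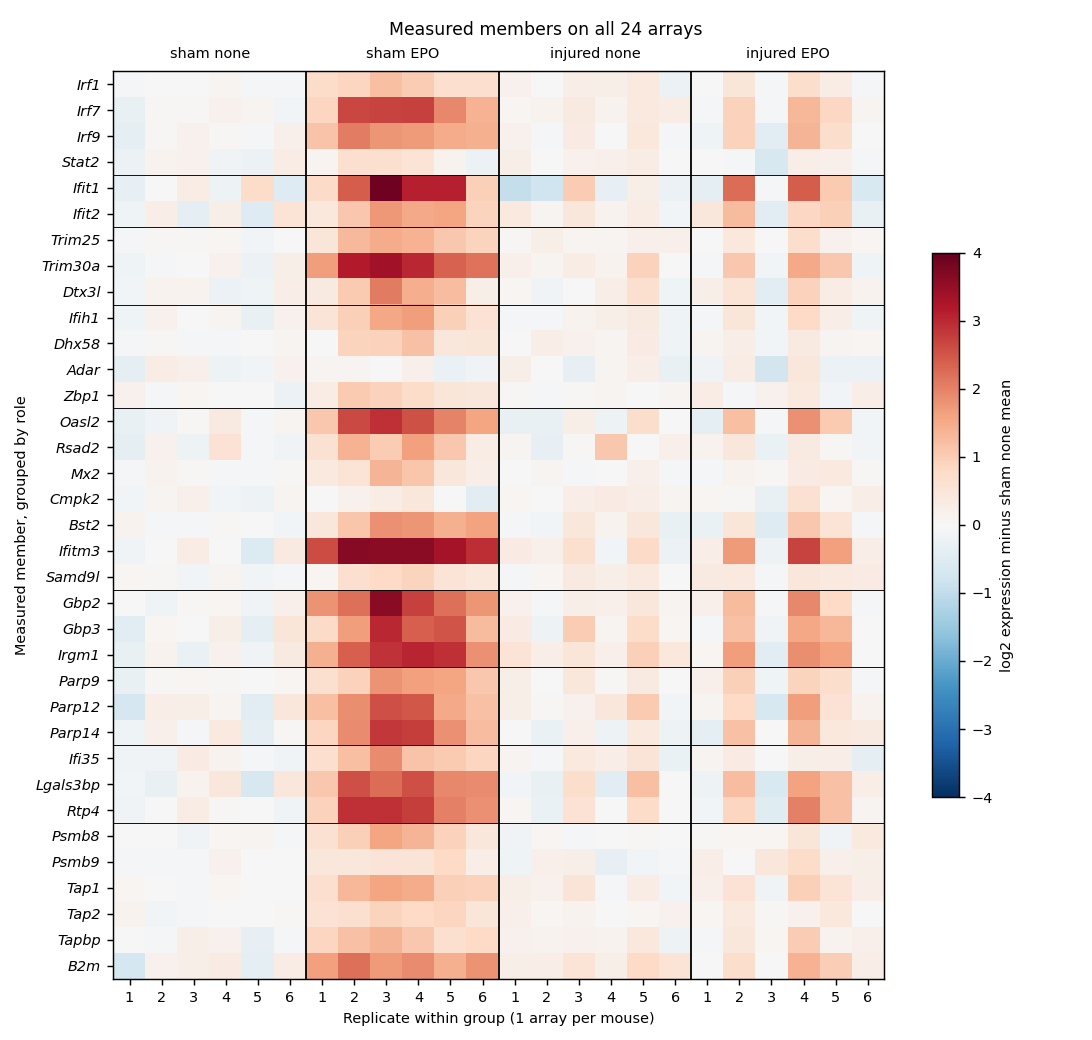
Each cell is the log2 expression of 1 measured member on 1 array minus its mean on the 6 sham none arrays; rows are grouped by role and columns by group, 1 array per pup. The sham EPO columns are red for nearly all members, and the injured EPO columns are red mainly for replicates 2, 4 and 5.

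Among the transcription factors, Irf7, the factor that amplifies type I interferon production, had log2 levels of 3.99, 4.33 and 4.44 (lowest, median and highest) in sham none, 5.13, 6.58 and 7.01 in sham EPO, 4.36, 4.50 and 4.66 for injured none and 4.20, 4.75 and 5.62 for injured EPO. All sham EPO arrays lay above all sham none and injured none arrays, while the injured EPO arrays spread from the sham none range into the low end of sham EPO. The difference of sham EPO from sham none was 2.05 ± 0.28 (SE), with a limma adjusted p of 7.03e-06.

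Irf9, the DNA-binding partner of Stat2, ran from 5.75 through a median of 6.15 to 6.30 in sham none and from 7.24 through 7.70 to 8.15 in sham EPO. It ran from 6.02 through 6.19 to 6.53 for injured none and from 5.69 through 6.45 to 7.48 in injured EPO. Sham EPO was apart from both untreated groups and overlapped injured EPO by 1 array, the fourth replicate. The rise was 1.59 ± 0.23.

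Irf1, which drives many class I genes, moved less: its levels were 5.05, 5.08 and 5.21 in sham none and 5.77, 5.90 and 6.29 in sham EPO, a rise of 0.86 ± 0.13. In injured none they were 4.85, 5.30 and 5.48, and in injured EPO 5.05, 5.25 and 5.81. Here too sham EPO stood clear of both untreated groups and met injured EPO at a single array.

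Stat2 carries the type I signal. Its levels overlapped in all groups, with 6.45, 6.69 and 7.01 in sham none, 6.47, 7.05 and 7.34 in sham EPO, 6.67, 6.89 and 6.99 for injured none and 6.04, 6.67 and 6.97 for injured EPO. The difference of 0.31 ± 0.15 in sham gave a limma adjusted p of 0.178.

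The IFIT proteins bind foreign RNA at its 5′ end. Ifit1 had levels of 2.55, 2.99 and 3.80 in sham none, 3.83, 5.84 and 6.98 in sham EPO, 2.13, 2.81 and 4.08 for injured none and 2.46, 3.57 and 5.50 for injured EPO. Its sham EPO arrays lay above all sham none arrays by a narrow margin and were the most scattered of any member in that group. The difference was 2.38 ± 0.54, and Ifit2 rose by 1.20 ± 0.26. The sham none level of Ifit1 was under the 25th percentile of all rows, 3.23, where the arrays carry little signal.

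In the ubiquitin system, Trim30a, a ubiquitin ligase of the TRIM family induced in macrophages, gave the second highest rise of all members. It measured 4.05, 4.25 and 4.51 in sham none, 5.95, 6.95 and 7.62 in sham EPO, 4.29, 4.44 and 5.19 for injured none and 4.10, 4.78 and 5.78 for injured EPO. No array of another group reached the sham EPO range. The difference was 2.62 ± 0.29, or 6.16-fold. Trim25, the ligase that activates the RNA sensor Rig-I, rose by 1.10 ± 0.14, and Dtx3l, the ligase that works as a pair with Parp9, by 1.07 ± 0.25.

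Among the members that sense, bind or edit RNA and DNA, Ifih1, the sensor of long double-stranded RNA, rose by 1.04 ± 0.19. Dhx58, its regulator, rose by 0.66 ± 0.14, and Zbp1, a sensor of Z-form nucleic acid, by 0.65 ± 0.11. Adar, the enzyme that edits adenosine in double-stranded RNA, had a difference of 0.00 ± 0.16 on a level near 7.90 in both groups, and its sign changed with the scaling of the arrays.

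The antiviral effectors held the highest rise. Ifitm3, a membrane protein that blocks entry of viruses, measured 6.62, 7.15 and 7.51 in sham none, 9.77, 10.61 and 10.79 in sham EPO, 6.92, 7.41 and 7.91 for injured none and 6.95, 8.11 and 9.86 for injured EPO. Its sham EPO values exceeded those of both untreated groups by more than a log2 unit, and 1 injured EPO array, replicate 4, came into their range. The rise was 3.29 ± 0.35, or 9.78-fold.

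Oasl2, of the oligoadenylate synthetase family, measured 3.84, 4.15 and 4.51 in sham none, 5.24, 6.42 and 7.08 in sham EPO, 3.86, 4.05 and 4.85 for injured none and 3.75, 4.62 and 5.99 for injured EPO. Sham EPO was again apart from both untreated groups, with a rise of 2.13 ± 0.33. Bst2, which tethers budding virus, rose by 1.37 ± 0.23, Rsad2, which makes a chain-ending nucleotide, by 1.01 ± 0.22, Mx2 by 0.69 ± 0.14 and Samd9l by 0.56 ± 0.12. Cmpk2, a mitochondrial nucleotide kinase that lies beside Rsad2 in the genome, differed by 0.08 ± 0.14, with a sign that changed with the scaling. Mx2 and Samd9l were among the dim members, with sham none means of 2.67 and 2.60.

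All 3 measured GTPases, of families that act at membranes in the defence against intracellular microbes, rose at least 3.83-fold. Gbp2 measured 3.34, 3.53 and 3.70 in sham none, 5.29, 5.71 and 7.11 in sham EPO, 3.42, 3.70 and 3.97 for injured none and 3.46, 4.01 and 5.43 for injured EPO. Irgm1 measured 3.84, 4.15 and 4.52 in sham none, 5.57, 6.79 and 7.19 in sham EPO, 4.36, 4.59 and 5.08 for injured none and 3.73, 4.98 and 5.99 for injured EPO. For both genes the sham EPO arrays were apart from both untreated groups, and 3 of the injured EPO arrays stood well above the rest of their group.

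Gbp3 measured 4.15, 4.61 and 5.03 in sham none, 5.32, 6.60 and 7.57 in sham EPO, 4.36, 4.77 and 5.58 for injured none and 4.43, 5.14 and 6.10 for injured EPO. Its sham EPO range was clear of sham none and overlapped that of injured none. The differences were 2.39 ± 0.29 for Gbp2, 2.42 ± 0.34 for Irgm1 and 1.94 ± 0.35 for Gbp3. Gbp2, Gbp3 and Irgm1 belong to families of related genes, as do Ifit1 and Trim30a. Part of their signal may come from relatives, which was not tested.

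The 3 ADP-ribosyltransferases rose together. Parp14 measured 3.27, 3.67 and 4.04 in sham none, 4.53, 5.53 and 6.50 in sham EPO, 3.39, 3.56 and 4.07 for injured none and 3.31, 4.07 and 5.03 for injured EPO. Parp12 measured 4.17, 5.03 and 5.29 in sham none, 6.02, 6.54 and 7.43 in sham EPO, 4.73, 5.06 and 5.89 for injured none and 4.21, 5.20 and 6.52 for injured EPO. Both were higher on every sham EPO array than on any untreated array, by 1.90 ± 0.30 and 1.81 ± 0.31 against sham none, and Parp9 rose by 1.28 ± 0.20.

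Of the remaining induced genes, Rtp4, a receptor transporter, measured 5.02, 5.14 and 5.46 in sham none, 6.10, 7.55 and 8.10 in sham EPO, 4.89, 5.20 and 5.90 for injured none and 4.69, 5.64 and 7.20 for injured EPO. Lgals3bp, a secreted glycoprotein that binds galectins, measured 6.11, 6.78 and 7.23 in sham none, 7.84, 8.83 and 9.35 in sham EPO, 6.35, 6.71 and 7.97 for injured none and 6.16, 7.48 and 8.37 for injured EPO. Rtp4 was apart from both untreated groups, and Lgals3bp from sham none only, since 1 injured none array reached its sham EPO range. The rises were 2.23 ± 0.35 and 2.04 ± 0.35, and Ifi35, a partner of Nmi, rose by 1.14 ± 0.17.

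All 6 measured members of MHC class I presentation rose, and for all 6 each sham EPO value exceeded all values of both untreated groups. B2m, the light chain that every class I molecule needs to reach the cell surface, measured 8.12, 9.05 and 9.16 in sham none, 10.25, 10.59 and 11.04 in sham EPO, 9.06, 9.24 and 9.64 for injured none and 8.83, 9.31 and 10.21 for injured EPO. No array of another group reached its sham EPO range, and 2 sham none arrays were low beside the other 4. The rise was 1.78 ± 0.22, or 3.43-fold.

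Tap1, a subunit of the peptide transporter, measured 5.12, 5.20 and 5.28 in sham none, 5.88, 6.34 and 6.80 in sham EPO, 5.09, 5.42 and 5.73 for injured none and 5.07, 5.63 and 6.16 for injured EPO. Psmb8, a catalytic subunit of the immunoproteasome, measured 3.41, 3.56 and 3.65 in sham none, 3.99, 4.49 and 5.13 in sham EPO, 3.41, 3.54 and 3.62 for injured none and 3.42, 3.62 and 4.03 for injured EPO. Both overlapped injured EPO through 1 array alone, replicate 4.

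Tap1 rose by 1.16 ± 0.16, and Tapbp, which bridges the transporter and the empty class I molecule, by 0.98 ± 0.15, as did Psmb8 by 0.98 ± 0.14. Tap2, the other transporter subunit, rose by 0.71 ± 0.09. Psmb9, another immunoproteasome subunit, rose by 0.51 ± 0.11, but with the arrays quantile-normalized its difference was 0.32 with a limma adjusted p of 0.0733.

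**Figure D2:**
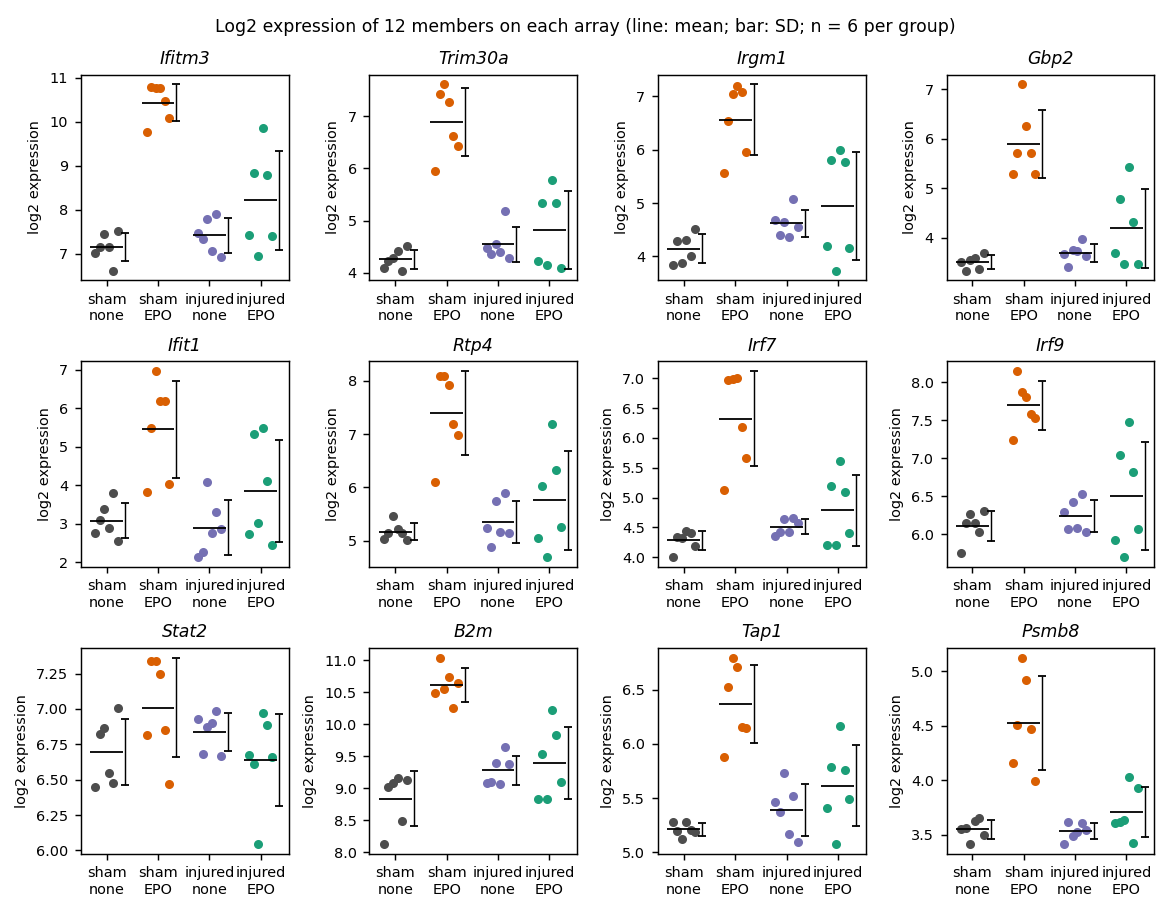
Each point is the log2 expression of a member on 1 array, with the group mean as a line and the SD as a bar, for 12 members in 4 groups of 6. In Ifitm3, Trim30a, Irf7 and B2m the sham EPO points lie above all points of both untreated groups, and Stat2 overlaps throughout.

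The number of members called was similar under other scalings of the arrays. The median difference of all rows moved from 0.03 to -0.02 with quantile normalization and to -0.15 with each array centred on its median, and that of the members from 1.16 to 0.99 and 0.98, with 31 and 32 members called. Over all rows the split was 2679 higher and 1766 lower as deposited, 2611 and 2696 with quantile normalization, and 1790 and 4286 with centring. The titles also carry a code from 3A to 3G, which the labels do not explain. With it as a block 32 members rose, and within code 3D, which holds 2 sham none and 2 sham EPO arrays, 24 did. Of all 23238 rows, 3163 and 862 were called in either direction in those fits.

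The genes around the members were counted in the same comparison. Of the interferon genes themselves, 17 were listed and 9 measured, and 0 were called by limma. At an unadjusted p under 0.05 there were also 0, against 29.4% of all rows. Ifnb1 had a mean level of 3.67 ± 0.24 (SD, n = 6) in sham none and 3.65 ± 0.36 in sham EPO, and Ifng 3.73 ± 0.25 and 3.65 ± 0.24, all dim on these arrays. Of 9 measured receptor and kinase genes, 3 rose and 1 fell: Il10rb by 1.26 ± 0.15, Ifngr1 by 1.10 ± 0.13 and Ifnar2 by 1.05 ± 0.16, while Ifngr2 fell by 0.37 on the log2 scale. With quantile normalization 5 of the 9 rose.

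Of 12 nucleic acid sensors and adaptors, 10 rose and 0 fell. Tlr7, the endosomal sensor of single-stranded RNA, rose by 2.57 ± 0.32, its adaptor Myd88 by 2.08 ± 0.25, Ddx58, which encodes Rig-I, by 1.29 ± 0.21 and Aim2, a sensor of DNA in the cytosol, by 1.02 ± 0.20. Of 3 other interferon regulatory factors, Irf8, a factor of microglia and myeloid cells, rose by 1.60 ± 0.14. Among 9 negative regulators 3 rose, Socs3 by 2.27 ± 0.18, Ptpn6 by 1.62 ± 0.19 and Ptpn2 by 0.55 ± 0.19, the last neither with centring nor with the title code blocked. Socs1 differed by -0.12 ± 0.15.

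A wider list of 53 interferon-stimulated genes outside the 47 had 34 measured, of which 27 rose and 0 fell (1 fell with centring), with a median of 0.76. Slfn2, a growth regulator of immune cells, rose by 3.12 ± 0.27, Cxcl10, a chemokine, by 2.39 ± 0.37, Gbp7 by 1.90 ± 0.33 and Rnf213 by 1.68 ± 0.28. Of 11 other class I genes 6 rose, with Erap1, which trims peptides, at 1.41 ± 0.22, Hfe at 0.97 ± 0.17, Fcgrt at 0.79 ± 0.11 and Tapbpl at 0.64 ± 0.12. In class II presentation 3 of 5 rose, Cd74 by 1.05 ± 0.18, H2-Ab1 by 0.64 ± 0.13 and H2-Aa by 0.32 ± 0.10, the last neither with centring nor with the title code blocked. All of these lists were drawn up with results of these data known and are not independent evidence of direction.

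**Figure D3:**
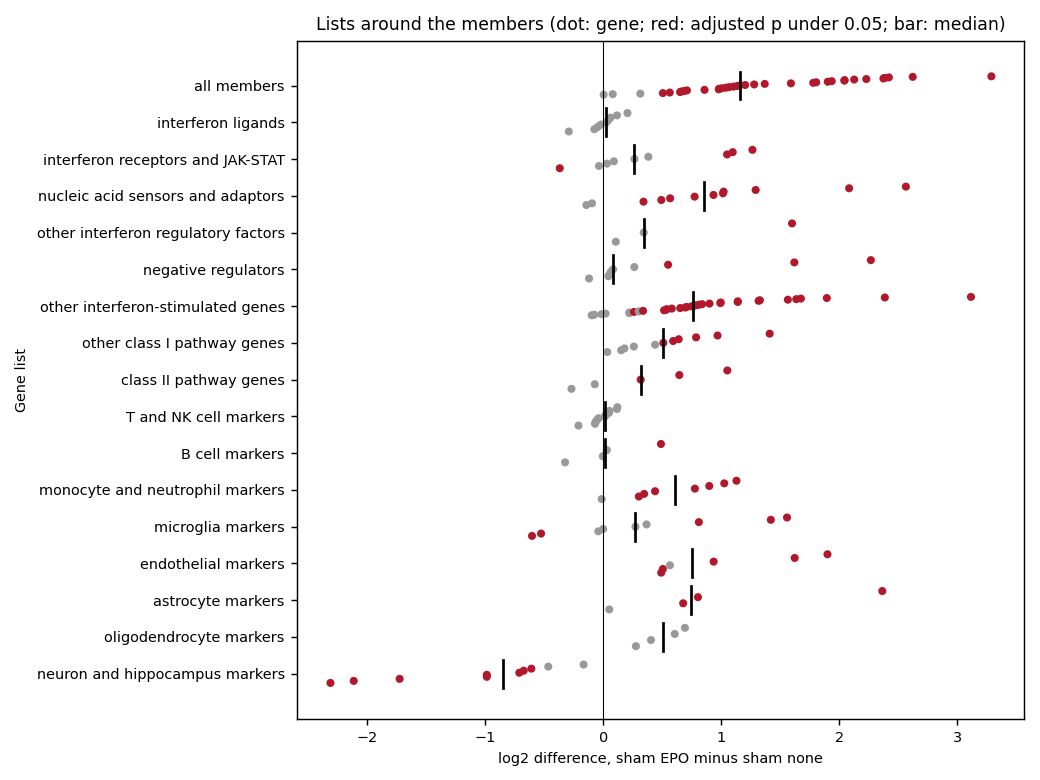
Each dot is the log2 difference of 1 gene between sham EPO and sham none, for all measured members and for each list of pathway or marker genes; red dots passed an adjusted p under 0.05 and black bars are list medians. Members, sensors and other interferon-stimulated genes lie mostly right of 0, interferon ligands around 0, and neuron markers left of 0.

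Cell type markers moved with the members in the same arrays, and in whole tissue a change in the number of cells of a type and a change in RNA per cell cannot be told apart. Of 8 monocyte and neutrophil markers 7 rose, with S100a8 at 1.13 ± 0.32 and Ccr2 at 1.03 ± 0.21; their summed level, as log2, ran from 6.07 to 6.28 in sham none and from 6.27 to 7.75 in sham EPO. With centring 4 of the 8 rose, and with the title code as a block 2 did, since S100a8, S100a9, Itgal, Cxcr2 and Chil3 lost the call. Of 6 endothelial markers 5 rose, Cdh5 by 1.90 ± 0.19 and Pecam1 by 1.62 ± 0.21, and their summed level ran from 9.08 to 9.66 and from 10.32 to 10.72. With the title code as a block 3 of the 6 rose, since Flt1 and Kdr lost the call, and Kdr lost it with centring too. Of 4 astrocyte markers 3 rose, with Gfap at 2.37 ± 0.33, and the sum ran from 11.48 to 11.89 and from 12.32 to 12.92. Of 9 microglia markers 3 rose, Itgam, Fcrls and Aif1, and 2 fell, P2ry12 and Tmem119, with sums of 9.66 to 10.03 and 10.07 to 10.54.

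Of 10 neuron and hippocampus markers 8 fell and 0 rose. The log2 difference was -2.31 ± 0.46 for Neurod6, of pyramidal neurons, -2.12 ± 0.20 for Fibcd1, -1.73 ± 0.17 for Hpca and -0.99 ± 0.11 for Camk2a, and the average level of the 10 ran from 9.66 to 10.05 in sham none and from 8.57 to 8.97 in sham EPO. No T and NK cell marker of 11 was called by limma, with 0 also at an unadjusted p under 0.05 and sums of 6.74 to 7.04 and 6.77 to 6.94. Of 4 B cell markers Cd79b rose by 0.49 ± 0.17, though neither under the other scalings nor with the title code blocked, and the sums ran from 5.78 to 6.41 and from 6.12 to 6.29. Of 4 oligodendrocyte markers 0 were called, with 0 at an unadjusted p under 0.05 and sums of 9.41 to 11.16 and 10.12 to 11.47. The part of these cell types in the rise of the members was not tested.

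Injury without EPO, injured none against sham none, brought no member past the threshold: 0 of 35 were called by limma, 0 also at an unadjusted p under 0.05, and 0% of all rows were called, while 1803 rows (7.76%) had an unadjusted p under 0.05. The difference was above 0 for 30 of the 35, with a median of 0.15 against 0.08 over all rows. The smallest p-values belonged to B2m with 0.44 ± 0.22 (limma adjusted p 0.646), Irgm1 with 0.48 ± 0.34, Samd9l with 0.16 ± 0.12, Cmpk2 with 0.18 ± 0.14 and Tap2 with 0.10 ± 0.09. Within the group, replicates 3 and 5 stood higher than the others, as counted below. Under the other reading of the titles, 32 members are called here.

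Injury with EPO, injured EPO against sham EPO, gave lower levels in 28 of the 35 members at the threshold and higher levels in 0, against 7.83% of all rows called lower. This comparison shares the sham EPO arrays with that of EPO in sham, so its direction is not a separate observation. The groups did not overlap for 4 members, Trim30a, B2m, Ifi35 and Tap2, as for 2.75% of all rows, and the median difference was -0.87 against -0.01 over all rows. The log2 difference was -2.23 for Ifitm3, -2.06 for Trim30a, -1.70 for Gbp2, -1.64 for Rtp4, -1.62 for Irgm1, -1.55 for Oasl2 and -1.54 for Irf7, with SEs from 0.28 to 0.35. In class I presentation it was -1.23 ± 0.22 for B2m, -0.82 ± 0.14 for Psmb8, -0.75 ± 0.16 for Tap1, -0.69 ± 0.15 for Tapbp and -0.53 ± 0.09 for Tap2.

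The members below the threshold in that comparison were Ifit1 at -1.60 ± 0.54 (limma adjusted p 0.0526), Ifit2 at -0.75 ± 0.26 (0.0618), Stat2 at -0.37 ± 0.15, Samd9l at -0.25 ± 0.12, Psmb9 at -0.18 ± 0.11, Adar at -0.11 ± 0.16 and Cmpk2 at 0.05 ± 0.14. Within title code 3D, with 2 sham EPO and 3 injured EPO arrays, 10 members fell, and with the code as a block 27 did. Of all 23238 rows, 437 and 2865 were called in either direction in those fits. Around the members, 7 of 12 sensors and adaptors, 23 of 34 other interferon-stimulated genes and 3 of 11 other class I genes fell, where the class I count was 5 with quantile normalization and 2 with centring. Of the neuron and hippocampus markers 8 of 10 rose, 5 of 6 endothelial and 6 of 8 monocyte and neutrophil markers fell, where the monocyte and neutrophil count was 4 with quantile normalization and 3 with centring, and their part in the fall of the members was not tested. Read the other way, the titles give 0 members called here and 28 lower with EPO in injured pups.

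**Figure D4:**
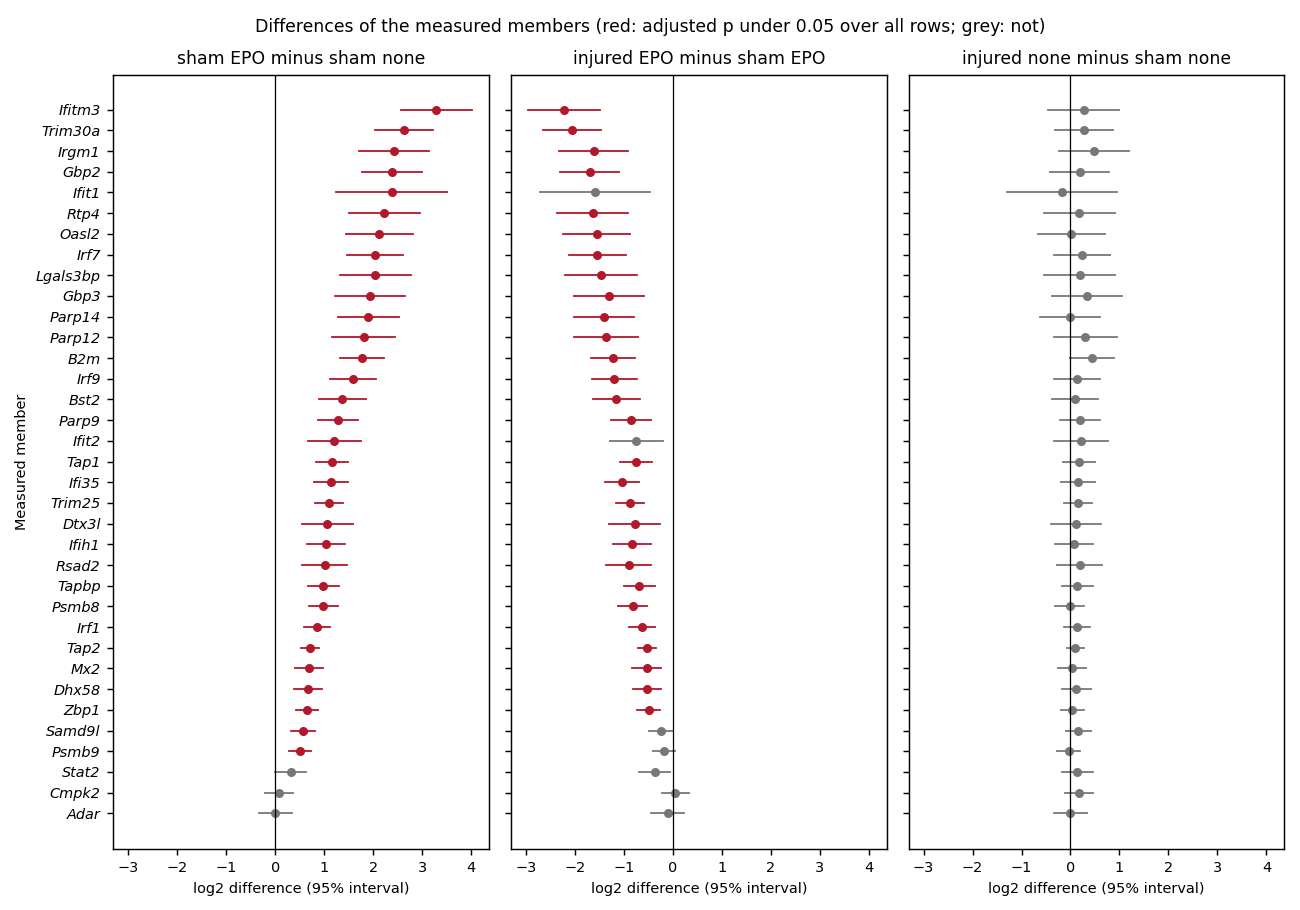
Log2 differences of all 35 measured members with 95% intervals in 3 comparisons, ordered by the difference of sham EPO from sham none; red passed an adjusted p under 0.05 over all rows. In the left panel 32 members are red and right of 0, in the middle 28 are red and left of 0, and in the right panel all intervals hold 0.

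EPO in injured pups, injured EPO against injured none, gave 0 of 35 members at the threshold in limma, with 2 at an unadjusted p under 0.05, and 0% of all rows, while 1892 rows (8.14%) had an unadjusted p under 0.05. The smallest p-values were those of Psmb9 at 0.36 ± 0.11 (limma adjusted p 0.539) and Ifitm3 at 0.80 ± 0.35 (0.592), then Ifit1 at 0.95 ± 0.54, Parp14 at 0.51 ± 0.30 and Gbp2 at 0.50 ± 0.29. The median of the 35 was 0.17.

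Whether the difference with EPO was the same in sham and injured pups was tested directly, as the interaction. It was below 0 at the threshold in 26 of the 35 members and above 0 in none, against 5.75% of all rows below 0, with a median of -1.05. It was lowest for Ifitm3 at -2.49 ± 0.50, Trim30a at -2.35 ± 0.41, Irgm1 at -2.10 ± 0.49 and Gbp2 at -1.89 ± 0.41, and in class I presentation for B2m at -1.67 ± 0.31. This contrast has the same value under either reading of the titles. It shares the sham EPO arrays with the comparison of EPO in sham, so its direction is not a separate observation. With the title code as a block 11 members kept the call, Irf1, Irf7, Trim25, Trim30a, Bst2, Ifitm3, Gbp2, Irgm1, Ifi35, Tap2 and B2m, and without injured EPO replicate 6 the count was 17. Within code 3D limma called 0, with 31 at an unadjusted p under 0.05, a count not taken over all rows. Of all 23238 rows, 902 were called in either direction with the block, 1233 without that replicate and 56 within code 3D.

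The remaining pairs of groups complete the set. Injured EPO against sham none gave 0 members at the threshold in limma and 0% of all rows, with 9 members and 1374 rows (5.91%) at an unadjusted p under 0.05. Ifitm3 differed by 1.06 ± 0.35 (limma adjusted p 0.702), Psmb9 by 0.32 ± 0.11, Samd9l by 0.31 ± 0.12, B2m by 0.55 ± 0.22 and Tap1 by 0.40 ± 0.16. Sham EPO against injured none gave 32 members higher, against 8.28% of all rows, with a median of 0.99 and Stat2, Adar and Cmpk2 again below the threshold. Read the other way, those 32 are lower.

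The injured EPO pups did not share 1 level. The mean log2 level of the 35 members was 4.91, 5.60, 4.70, 5.95, 5.45 and 4.92 on their 6 arrays, while it lay between 4.72 and 4.98 in sham none, between 5.65 and 6.76 in sham EPO and between 4.86 and 5.33 in injured none. Replicates 2, 4 and 5 were thus above all sham none and injured none arrays, and the others were near or within the sham none range. The medians of all rows on these 6 arrays were 5.21, 5.33, 5.05, 5.37, 5.28 and 5.17. Replicates 2, 4 and 5 thus also had the highest array medians of their group. The split was not repeated on rescaled arrays, and the part of the array-wide level in it was not tested. Replicate 4 was the highest of its group in 29 of the 35 members, and replicates 2, 4 and 5 were the highest 3 in 26. These ranks were not counted over all rows, so they do not show an order particular to the members. Within a group, the median SD of the members was 0.19 for sham none and 0.23 for injured none, and 0.43 for sham EPO and 0.46 for injured EPO. Over all rows the median SDs were 0.22, 0.19, 0.22 and 0.27 in the same order.

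The number of members above all 6 sham none arrays shows the same by array. It was 6, 28, 1, 32, 26 and 6 of 35 on the injured EPO arrays. Of all rows, 12.3%, 23%, 13.1%, 29.2%, 23.2% and 13.5% were that high on the same arrays. On the injured none arrays it was 5, 4, 21, 7, 26 and 5, with 17.1% to 27.1% of all rows, the latter on replicate 1. On the sham EPO arrays it was 29, 33, 34, 34, 32 and 30, with 21.1% to 28.5% of all rows. The 3 high injured EPO arrays carry title codes 3A, 3D and 3D and the 3 low ones 3A, 3D and 3F. The part of the code in the split was not tested. These arrays were picked out by the members' own values, so no test was made between them.

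**Figure D5:**
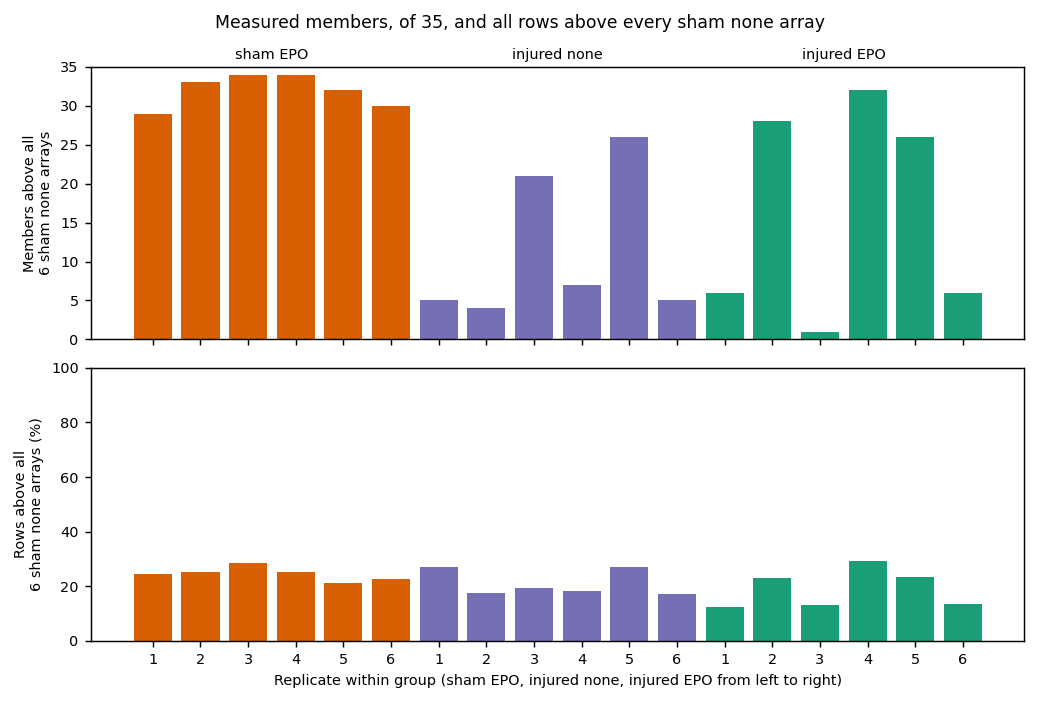
Bars give, for each array outside sham none, the number of the 35 measured members (top) and the percentage of all rows (bottom) above all 6 sham none arrays. Every sham EPO array has 29 to 34 such members, while injured EPO arrays range from 1 to 32.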

How the data were processed

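The table deposited by the authors holds log2 expression, 1 value for each row on each array. Per the submitters' processing notes it came from RMA in Affymetrix Expression Console, with versions not given in the sources used here. RMA corrects background, normalizes quantiles and summarises probes, and the table holds no detection calls, so low values carry little signal. Of 23238 rows 989 carry several symbols and 7310 are unnamed. A model of 1 mean per group over 24 arrays was fitted to each row with limma 3.58.1 in R 4.3.3 (20 residual degrees of freedom, median SE of a difference 0.14), Benjamini-Hochberg over all rows and no filter on level, and the fit was tested on simulated data. The members and lists were chosen with earlier results of these data known. Every measured member is named; full ranges are given for the 12 with the highest difference of EPO in sham and for named transcription factors, Ifit1 and class I genes, and up to 4 genes per further list. Alternatives covered scaling, low rows, weights for arrays, the variance prior, the title code and its reading, the threshold, and leaving out each replicate in turn. Applying the scalings and the code block to the further lists was chosen after seeing the data. Figures were drawn with matplotlib 3.10.9.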

Additional observations from a re-analysis of the deposited data

Results flagged for a closer look

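In 140 sets of 1 member in 1 group of 6 arrays, 5 held an array far from the rest, and chance marks about 1 set in 20. Irf1 was high at 5.21 on sham none replicate 4 (next array 5.11). Trim30a was high at 5.19 on injured none replicate 5 (next 4.55), and Rsad2 at 5.88 on injured none replicate 4 (next 5.01). Samd9l was low at 2.54 on injured EPO replicate 3 (next 2.92), and Parp9 at 3.52 on sham none replicate 1 (next 3.84).

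The difference with EPO itself differed between sham and injured pups, by the limma interaction at an adjusted p under 0.05, for 26 members. All 26 were below 0, against 5.75% of all rows, and 11 members were called with the title code as a block. Among transcription factors and ubiquitin ligases the interaction was -0.75 for Irf1, -1.77 for Irf7, -1.32 for Irf9, -1.02 for Trim25 and -2.35 for Trim30a. Among sensors and effectors it was -0.91 for Ifih1, -0.65 for Dhx58, -0.53 for Zbp1, -1.57 for Oasl2, -1.09 for Rsad2, -1.25 for Bst2 and -2.49 for Ifitm3. It was -1.89 for Gbp2, -1.64 for Gbp3, -2.10 for Irgm1, -1.05 for Parp9, -1.67 for Parp12 and -1.39 for Parp14. For Ifi35 it was -1.20, for Lgals3bp -1.65 and for Rtp4 -1.82. In class I presentation it was -0.80 for Psmb8, -0.93 for Tap1, -0.63 for Tap2, -0.83 for Tapbp and -1.67 for B2m.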

How the results depend on the processing

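No paired analysis was possible because the replicate numbers only follow accession order and pair no pups. Leaving out each array in turn gave 32 to 32 members called for EPO in sham and 27 to 31 for injury with EPO. It gave 17 to 27 for the interaction (17 without injured EPO replicate 6) and 31 to 32 for sham EPO against injured none. Of all 23238 rows, 3819 to 5048, 2520 to 3791, 1233 to 2411 and 4091 to 5297 were called in the same order. For injury without EPO, EPO in injured and injured EPO against sham none it gave 0 to 0 members, with 0 to 1 of all rows. With rows of a mean under 5 left out, 19 members were tested, and 16, 15, 14 and 16 were called for EPO in sham, injury with EPO, interaction and sham EPO against injured none. Of the 12170 rows kept, 3917, 2802, 1577 and 4185 were called in the same order. The interaction had 11 members with the title code as a block, 0 within code 3D and 9 at an adjusted p of 0.01. Of all 23238 rows it had 902, 56 and 745 in the same order. Injury with EPO had 10 members within code 3D, where 437 rows were called. The cause was not tested. Titles read the other way gave 0 for EPO in sham, 32 for injury without EPO, 0 for injury with EPO, 28 for EPO in injured, and 32 in the opposite direction for sham EPO against injured none, by exchange of groups. Depth does not apply to arrays, and 6 per group limit the precision. Differences of dim members may be compressed, which was not tested.

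Signs changed only for uncalled values, apart from the exchanged titles. For EPO in sham, Adar was -0.022 with quantile normalization, -0.17 with centring, -0.0053 with array weights, -0.13 with the title code as a block, -0.14 within code 3D, -0.00077 with Eif2s3y as a covariate and -0.065 to 0.062 with 1 array left out; Cmpk2 was -0.067 with quantile normalization and -0.091 with centring. For the interaction, Adar was 0.049 and 0.093, Cmpk2 0.14 and 0.068 and Psmb9 0.088 and 0.049 under those scalings, and Adar was -0.21 to 0.025 with 1 array left out. For injury with EPO, Adar was 0.018 with centring and -0.22 to 0.022 with 1 array left out, and Cmpk2 -0.26 within code 3D and -0.056 to 0.13 with 1 array left out.

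Titles read the other way changed signs as follows. For EPO in sham, Ifit1 became -0.17, Adar -0.0030, Parp14 -0.013, Psmb8 -0.018 and Psmb9 -0.036. For EPO in injured, Psmb9 became -0.18, Ifitm3 -2.23, Ifit1 -1.60, Parp14 -1.40 and Gbp2 -1.70. For injury with EPO, values became 0.10 for Irf1, 0.27 for Irf7, 0.27 for Irf9, 0.95 for Ifit1, 0.24 for Ifit2, 0.086 for Trim25, 0.28 for Trim30a, 0.17 for Dtx3l, 0.13 for Ifih1, 0.013 for Dhx58, 0.12 for Zbp1, 0.56 for Oasl2, 0.12 for Mx2, -0.047 for Cmpk2, 0.12 for Bst2, 0.80 for Ifitm3, 0.15 for Samd9l, 0.50 for Gbp2, 0.29 for Gbp3, 0.32 for Irgm1, 0.23 for Parp9, 0.13 for Parp12, 0.51 for Parp14, 0.39 for Lgals3bp, 0.41 for Rtp4, 0.18 for Psmb8, 0.36 for Psmb9, 0.22 for Tap1, 0.079 for Tap2, 0.16 for Tapbp and 0.11 for B2m.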
